A study of Homo sapiens with 6 samples.

Results

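Cadherins and protocadherins were taken from the RNA-seq gene table of BT549 cells as every row whose symbol is CDH followed by a number alone or begins with PCDH, which gave 93 of 23346 genes. The 93 comprise 23 CDH genes, 13 protocadherins that lie outside the gene arrays and 57 clustered protocadherins, of which 15 belong to the PCDHA array, 19 to the PCDHB array and 23 to the PCDHG array. BT549 is a breast cancer cell line, labelled as mesenchymal and of wild-type genotype, and was grown in RPMI with fetal calf serum. Cells were transfected with 20 nM negative control (NC) siRNA or with 20 nM BNC2 siRNA, an equal mix of 3 siRNAs against BNC2 (basonuclin-2, a zinc finger protein), and poly(A) RNA was sequenced 6 days after transfection from 3 cultures of each kind. There was no untransfected group, and both groups are the same line, so all values describe 1 line at 1 time. The study asked which genes depend on BNC2 in mesenchymal breast cancer cells, and the question here is which members of the cadherin families these cells express and which of them differed after BNC2 siRNA.

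Classical cadherins are single-pass membrane proteins that bind, through calcium-dependent extracellular repeats, mostly to the same cadherin on the neighbouring cell, and whose tails hold the catenins that link the junction to actin. Epithelial cells typically use CDH1 (E-cadherin) and CDH3 (P-cadherin), whereas mesenchymal cells typically use CDH2 (N-cadherin) and CDH11 (OB-cadherin), and a change from the former to the latter is a common sign of epithelial-mesenchymal transition. Protocadherins share the extracellular repeats but not the catenin-binding tail. Those outside the arrays are named delta-1 or delta-2 by the motifs in their tails, and the clustered ones form 3 neighbouring arrays in which each gene has a promoter and a large exon of its own. In the PCDHA and PCDHG arrays this exon is spliced to constant exons that all genes of the array share, whereas PCDHB genes have no shared exons.

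The libraries held between 16093978 and 18246254 counts, where the upper limit for a gene without any count (3 counts) is 0.168 to 0.191 CPM, counts scaled by library size. Such limits cover counting error only. The target BNC2 was at 51.5 to 65.6 CPM with NC siRNA and at 35.5 to 41.6 CPM with BNC2 siRNA (log2 fold change -0.63, standard error 0.09, edgeR adjusted p = 8.2e-06), so its transcript was lowered and not removed. The labelled cell type was checked on marker genes. All 6 mesenchymal markers passed the filter of 1 CPM in 3 libraries, with a summed level of 6417 to 6520 CPM in NC siRNA and 6377 to 6609 CPM in BNC2 siRNA libraries, in which SPARC was lower and VIM, FN1, ZEB1 and TWIST1 higher in every BNC2 siRNA library. Of 8 epithelial markers 0 passed, with sums of 0.662 to 1.24 and 0.931 to 1.41 CPM. EPCAM and ESRP1 were at 0 in all libraries, ESRP2 was at 0.1204 to 0.451 CPM with NC siRNA and at 0.756 to 1.30 CPM with BNC2 siRNA, and KRT8 (11 and 3 counts per group), KRT19 (10 and 1) and CLDN4 (11 and 0) had fewer counts with BNC2 siRNA. None of 4 endothelial and 4 leukocyte markers passed, whereas 3 of 4 neural markers did, mainly TUBB3, with sums of 342 to 376 and 389 to 433 CPM. The part of these markers in the results below was not tested. In bulk RNA, fewer cells with a transcript and less transcript per cell cannot be told apart.

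Most cadherin genes were scarcely detected. Of the 93 members, 15 had 0 counts in all 6 libraries, 36 had 1 to 9 counts in total, and 30 had at least 30. A gene was tested if 3 or more of the 6 libraries exceeded 1 CPM, which kept 23 members and left 70 below the filter. All but 7 of the 23 were above 1 CPM in each of the 6 libraries. CDH3, PCDH20 and PCDHAC2 passed only through the NC siRNA libraries and so had to differ, PCDH17, PCDHB9 and PCDHGA9 were above 1 CPM in all 3 NC siRNA libraries and in only 1 or 2 BNC2 siRNA libraries, and PCDHA12 in 1 NC siRNA and 2 BNC2 siRNA libraries.

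The members tested were changed in both directions, with more falls than rises. At an adjusted p of at most 0.05 (edgeR's quasi-likelihood test), 7 members were higher and 15 lower with BNC2 siRNA, and PCDHGB7 was not called. Among all 12186 genes tested, 72.9% were called, 36.6% as higher and 36.2% as lower, so a call as such does not set the members apart. At least 2-fold changes were called for 9 of the 23 members, beside 18.1% of all genes tested. The libraries of the groups did not overlap in 21 of the 23, beside 74.9% of all genes tested. The fall and the separation of CDH3, PCDH20 and PCDHAC2 were fixed by the filter, and the other 20 members comprised 7 higher and 12 lower, 6 with at least 2-fold changes and 18 without overlap. The median log2 fold change of the members was -0.80 and that of all genes 0.00143, and the median size of the change was 0.88 beside 0.44. The median was -0.62 over the 20 members and -0.40 over the 78 members with any count, where no filter was used and the median of all genes was -0.07. These counts and medians describe the members, which were not tested as a set.

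**Figure D1:**
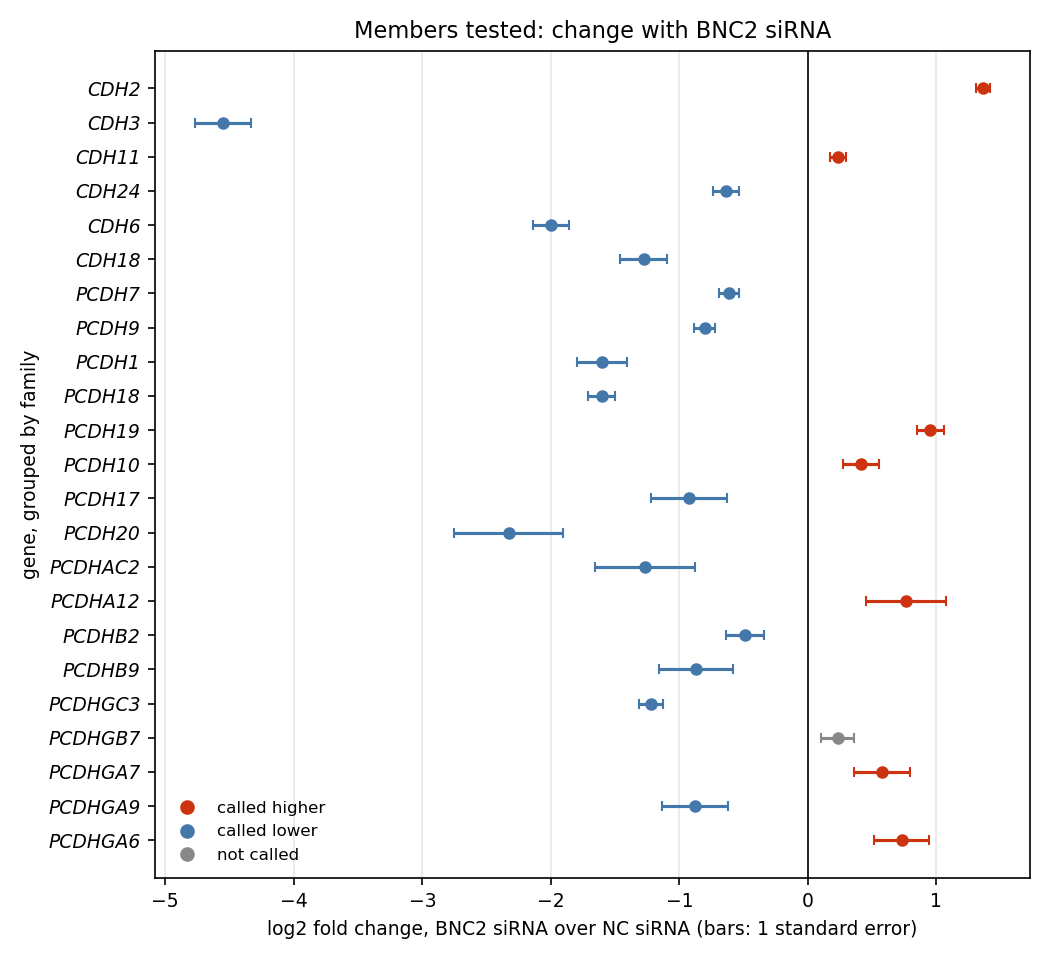
Log2 fold change (x axis) of the 23 cadherin and protocadherin genes that passed the filter (y axis, grouped by family), with bars of 1 standard error, 3 BNC2 siRNA against 3 NC siRNA libraries. Points to the right of 0 are higher with BNC2 siRNA, and they range from -4.55 for CDH3 to 1.36 for CDH2.

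Among the type I classical cadherins, CDH2 rose and CDH3 fell, and the others were hardly detected. CDH2 (chr18:25512843-25757910, minus strand, GRCh37) was measured at 153.2, 155.4 and 147.6 CPM with NC siRNA and at 393.3, 385.5 and 395.0 CPM with BNC2 siRNA. Every library with BNC2 siRNA was far above every library without, a 2.57-fold rise (edgeR adjusted p = 1.5e-12). CDH3 (chr16:68670092-68761371, plus strand, GRCh37) had 191, 178 and 171 counts with NC siRNA and 8, 10 and 4 counts with BNC2 siRNA. These are 10.3 ± 0.396 and 0.428 ± 0.158 CPM (SD, n = 3), a 23.4-fold fall (log2 fold change -4.55, standard error 0.22, adjusted p = 1.6e-11 by edgeR). CDH3 was thus the member with the largest change, from a low level to near the detection limit. It passed the filter only through the NC siRNA libraries, so a fall was fixed by the filter and its p is no support. For CDH1 a single read was counted over the 6 libraries, so no difference was detectable at this depth.

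Of 13 type II classical cadherins, 4 passed the filter, and CDH11 rose slightly while CDH6, CDH18 and CDH24 fell. CDH11 (chr16:64977656-65160015, minus strand) is the OB-cadherin of osteoblasts and mesenchymal cells, and was measured at 174.7, 149.2 and 154.6 CPM with NC siRNA and at 178.0, 195.5 and 189.2 CPM with BNC2 siRNA. The groups were close but did not overlap (log2 fold change 0.23, standard error 0.07, edgeR adjusted p = 0.0043), and without replicate 2 of NC siRNA the rise was 0.17 and was not called (adjusted p = 0.0516). CDH6 (chr5:31193793-31329253, plus strand), the K-cadherin of the developing kidney, fell from 17.1, 13.9 and 17.2 CPM to 3.49, 4.23 and 4.33 CPM. This 3.99-fold fall was the largest of the type II genes (log2 fold change -1.998, standard error 0.14, edgeR adjusted p = 1.4e-09). CDH18 (chr5:19471405-20575982, minus strand), known mainly from the nervous system, fell from 4.84, 6.27 and 5.72 CPM to 2.15, 2.595 and 2.16 CPM (log2 fold change -1.28, standard error 0.18, edgeR adjusted p = 7.3e-06). CDH24 (chr14:23516271-23526747, minus strand) fell from 20.8, 22.3 and 22.2 CPM to 16.1, 13.3 and 12.7 CPM (log2 fold change -0.64, standard error 0.10, edgeR adjusted p = 3.0e-05). In each of these 3 genes the lowest NC siRNA library was above the highest BNC2 siRNA library. The groups did not overlap in 74.9% of all genes tested. The endothelial CDH5 had 0 counts in every library, and none of the 5 other CDH genes, which include the lipid-anchored CDH13 and the hair-cell cadherin CDH23, passed the filter.

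**Figure D2:**
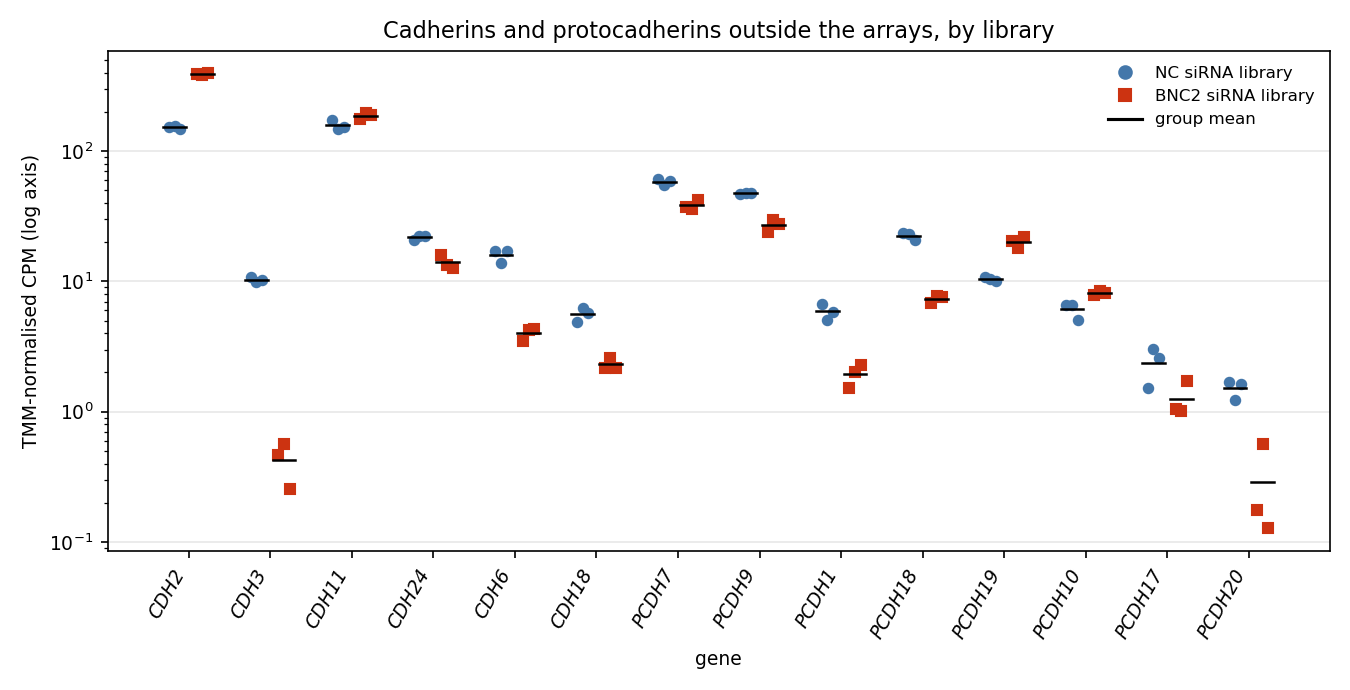
CPM (log axis) of the 14 members outside the arrays that passed the filter, with circles for the 3 NC siRNA libraries, squares for the 3 BNC2 siRNA libraries and lines for the group means. CDH2 and CDH11 stand above 100 CPM in all libraries, CDH3 drops below 1 CPM with BNC2 siRNA, and only PCDH17 has overlapping groups.

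To compare levels between genes, CPM was divided by the length of the exons that no other gene shares, in kilobases. On this scale CDH2 was the highest of the 23 members with NC siRNA (37.9 ± 1.00, SD, n = 3), followed by the clustered PCDHGC3 (34.7 ± 5.10) and by CDH11 (23.7 ± 2.00). The ranges of CDH2 (36.8 to 38.7) and PCDHGC3 (30.2 to 40.3) overlapped, and that of CDH11 (22.2 to 26.0) lay below both. With BNC2 siRNA the order was CDH2 (97.4 ± 1.26), CDH11 (27.9 ± 1.32) and PCDHGC3 (14.9 ± 1.25), with no overlap. PCDH9, PCDH7 and CDH24 followed at 4.10 to 4.36 with BNC2 siRNA, where their ranges overlapped, and at 6.37 to 7.60 with NC siRNA. CDH3 went from place 10 among the 23 to place 22, and PCDH19 from place 14 to place 8. These places are approximate, because ranges of neighbouring genes overlapped. The range of CDH3 overlapped that of PCDHB2 with NC siRNA and that of PCDH17 with BNC2 siRNA. With NC siRNA the range of PCDH19 overlapped that of CDH18.

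Among the 6 CDH genes that passed the filter, the sum of CPM per kilobase was 71.8 to 75.7 with NC siRNA and 130.1 to 131.2 with BNC2 siRNA. CDH2 made up 51.6% ± 1.49 of this sum with NC siRNA and 74.7% ± 0.800 with BNC2 siRNA (SD, n = 3). CDH11, in spite of its slight rise, went from 32.3% ± 1.91 to 21.4% ± 1.00 of the sum. The other 4 together went from 16.0% ± 0.765 to 3.94% ± 0.380. For each unit of CDH11 there were 1.47 to 1.74 units of CDH2 in NC siRNA libraries and 3.30 to 3.70 in BNC2 siRNA libraries. No test was made on these sums, which describe the same values as the gene tests above.

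**Figure D3:**
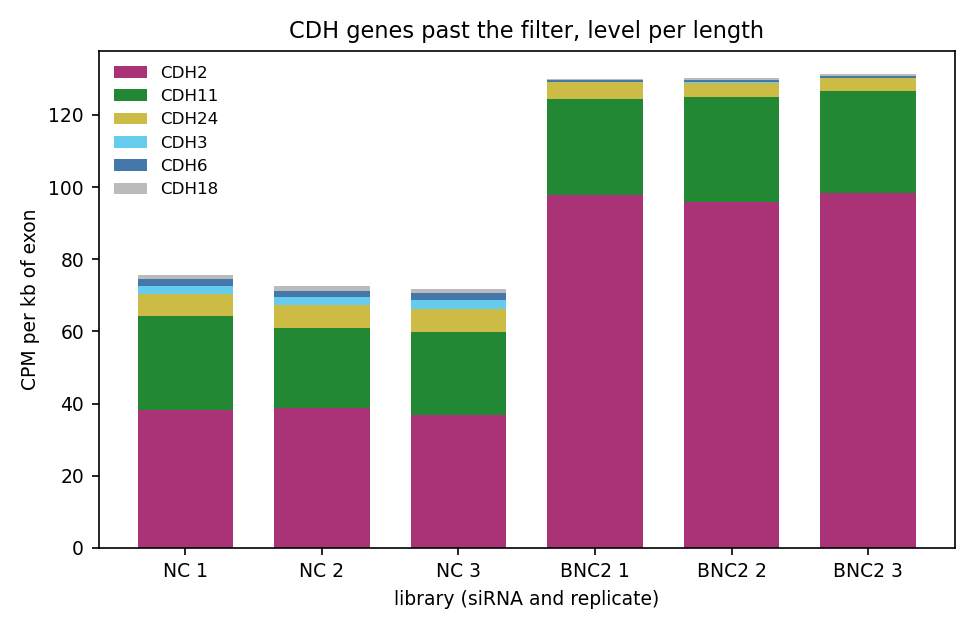
Level per length (CPM per kilobase of exon, y axis) of the 6 CDH genes that passed the filter, stacked in each library (x axis). The BNC2 siRNA columns are taller mainly in the CDH2 band, and the bands of CDH3, CDH6 and CDH18 are barely visible in them.

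Delta-1 protocadherins, whose tails carry a motif that binds protein phosphatase 1, were lower in all 3 members that passed the filter. Over all genes tested, 36.2% were called lower. PCDH7 (chr4:30721991-31148427, plus strand) was measured at 61.1, 54.9 and 59.5 CPM with NC siRNA and at 37.2, 35.9 and 41.8 CPM with BNC2 siRNA (log2 fold change -0.61, standard error 0.08, edgeR adjusted p = 1.8e-06). PCDH9 (chr13:66876966-67804577, minus strand) went from 46.5, 48.1 and 47.4 CPM to 24.0, 29.8 and 27.6 CPM (log2 fold change -0.80, standard error 0.08, edgeR adjusted p = 1.9e-07). Both were the most abundant protocadherins outside the arrays in these cells. PCDH1 (chr5:141232655-141258811, minus strand), known from airway epithelium, fell from 6.76, 5.10 and 5.84 CPM to 1.51, 2.03 and 2.29 CPM (log2 fold change -1.60, standard error 0.20, edgeR adjusted p = 1.5e-06). In none of the 3 genes did the groups overlap, beside 74.9% of all genes tested without overlap. The other 2 genes of this subfamily had 0 counts.

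Delta-2 protocadherins, several of which bind the WAVE complex that builds actin networks, moved in both directions, with 2 of 4 members higher and 2 lower. Over all genes tested, 36.6% were called higher and 36.2% lower. PCDH19 (chrX:99546642-99665271, minus strand), mutated in an inherited epilepsy, rose from 10.8, 10.5 and 9.99 CPM to 20.4, 18.1 and 22.1 CPM (log2 fold change 0.95, standard error 0.10, edgeR adjusted p = 3.9e-07). PCDH10 (chr4:134070449-134129761, plus strand) rose less, from 6.65, 6.61 and 5.06 CPM to 7.85, 8.46 and 8.09 CPM (log2 fold change 0.41, standard error 0.14, edgeR adjusted p = 0.014). Its NC siRNA replicate 3 lies below the other NC libraries, and without that library the rise was 0.28 and was not called (adjusted p = 0.105). PCDH18 (chr4:138440072-138453648, minus strand) fell from 23.7, 23.1 and 20.6 CPM to 6.86, 7.73 and 7.58 CPM, a 3.04-fold fall (log2 fold change -1.61, standard error 0.11, edgeR adjusted p = 7.8e-10). PCDH19 and PCDH18 thus changed places, with PCDH18 the higher in every NC siRNA library and PCDH19 the higher in every BNC2 siRNA library, on the CPM scale and per kilobase. PCDH17 (chr13:58205878-58303445, plus strand) had 27, 54 and 43 counts with NC siRNA and 18, 18 and 27 with BNC2 siRNA. In CPM its lowest NC library lay below the highest BNC2 siRNA library (log2 fold change -0.93, standard error 0.30, edgeR adjusted p = 0.011), and the call was lost without NC siRNA replicate 2 (-0.73, adjusted p = 0.0588) or BNC2 siRNA replicate 2 (-0.78, adjusted p = 0.0518). PCDH20 (chr13:61983818-61989982, minus strand), outside both subfamilies, was at 1.69, 1.23 and 1.63 CPM with NC siRNA and at 0.174, 0.564 and 0.127 CPM with BNC2 siRNA. It fell in the test (log2 fold change -2.33, standard error 0.42, edgeR adjusted p = 0.00011), and without BNC2 siRNA replicate 2, its highest library of that group, the change was -3.25. PCDH20 passed the filter only through the NC siRNA libraries, so its fall was fixed by the filter and these values are no support for it.

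The clustered protocadherins lie side by side on chromosome 5. Their promoters are known for a conserved element that CTCF binds, a DNA-binding protein which, with cohesin, joins a promoter to an enhancer and so selects the gene that is transcribed. The RefSeq promoter table (250 bases before to 50 after each start) held 70 of the 93 members and 47 of the 57 clustered ones. A short run typical of each array was searched on both strands, the runs having been chosen after the array promoters were read. GATGTCGCT occurred in 9 of 13 PCDHA promoters and in 0.128% of the promoters of all 27305 genes, GGTGGCGCT in 13 of 14 PCDHB promoters and in 0.619% of all, and CGCTGT in 17 of 20 PCDHG promoters and in 13.3% of all. CGCTGT was also found in 7 of 13 PCDHA promoters. CGCT, which the 3 runs share, occurred in 71.9% of all promoters and by itself marks nothing. The bases from 100 to 31 before the RefSeq start are shown for 8 of the 9 clustered genes that passed the filter, because these genes carry the results of the arrays. The gene left out is PCDHB2, whose promoter also holds the run of its array. Its RefSeq promoter had no exact match on chromosome 5 of GRCh37. The sequences are RefSeq's (GRCh38), matched as a whole to 1 place on chromosome 5 of GRCh37, all on the plus strand. Other chromosomes were not searched. Capitals mark the run of the gene's own array as read on this strand. PCDHGA7 also holds the run of its array on the opposite strand, just before the capitals.
PCDHA12, chr5:140254793-140254862: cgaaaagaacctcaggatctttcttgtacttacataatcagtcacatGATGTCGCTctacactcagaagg
PCDHAC2, chr5:140345961-140346030: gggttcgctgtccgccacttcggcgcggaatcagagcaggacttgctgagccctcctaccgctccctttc
PCDHB9, chr5:140566635-140566704: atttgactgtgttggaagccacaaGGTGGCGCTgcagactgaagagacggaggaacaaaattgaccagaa
PCDHGA6, chr5:140753358-140753427: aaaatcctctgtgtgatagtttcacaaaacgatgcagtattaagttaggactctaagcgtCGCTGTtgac
PCDHGA7, chr5:140762209-140762278: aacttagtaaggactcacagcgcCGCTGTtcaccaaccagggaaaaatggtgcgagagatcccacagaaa
PCDHGA9, chr5:140782245-140782314: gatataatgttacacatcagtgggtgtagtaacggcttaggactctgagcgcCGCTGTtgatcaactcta
PCDHGB7, chr5:140797144-140797213: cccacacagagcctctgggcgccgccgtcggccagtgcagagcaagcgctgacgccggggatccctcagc
PCDHGC3, chr5:140855433-140855502: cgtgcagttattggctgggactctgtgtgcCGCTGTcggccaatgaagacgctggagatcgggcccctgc
The run began 40 to 77 bases before the start in the 6 sequences with capitals. PCDHAC2 and PCDHGB7 do not hold the letters of their array's run in this window. The runs are a description of the sequence and not evidence of binding.

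Reads that overlap more than 1 gene are not assigned in these counts. Each PCDHA gene tested shares 2869 exon bases with other genes of its array, and each PCDHG gene tested 2177, so reads in the constant exons were not counted, and a count on these genes comes mainly from the gene's own exon, of 2532 to 2856 bases in the genes tested. Across the libraries, 0.775% to 0.840% of reads were ambiguous in this way, over all genes.

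The PCDHG array carried most of the clustered protocadherin counts, and most of these were on PCDHGC3, a C-type gene that is known to be widely expressed outside the nervous system. PCDHGC3 had 103.9, 86.9 and 78.0 CPM with NC siRNA and 41.7, 35.3 and 38.4 CPM with BNC2 siRNA. The groups lie wide apart, although the NC siRNA libraries vary more than the others, and the 2.33-fold fall was called (log2 fold change -1.22, standard error 0.09, edgeR adjusted p = 5.8e-09). It was the only gene of this array past 100 counts in every library apart from PCDHGB7. The share of the array's counts on PCDHGC3 was 84.9% ± 0.907 with NC siRNA and 67.4% ± 1.41 with BNC2 siRNA (SD, n = 3). The whole array summed to 105.5 ± 14.3 CPM and 57.0 ± 3.59 CPM, a ratio of 0.54. Without PCDHGC3, the other 22 genes summed to 17.1, 15.6 and 14.8 CPM with NC siRNA and to 18.8, 18.1 and 18.6 CPM with BNC2 siRNA, a ratio of 1.17. The lower sum of the array thus lay in PCDHGC3, and the other genes together were slightly higher in every BNC2 siRNA library. Sums over members were not tested.

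**Figure D4:**
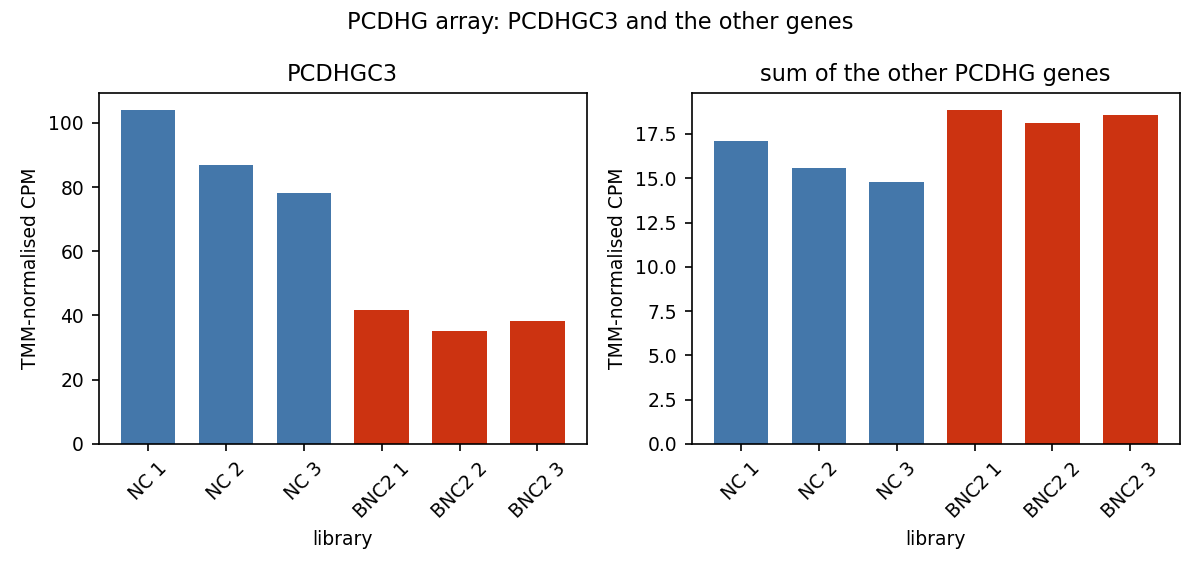
CPM in each library (x axis) of PCDHGC3 (left) and of the other PCDHG genes summed (right), with NC siRNA libraries in blue and BNC2 siRNA libraries in red and each panel on a scale of its own from 0. PCDHGC3 is at 78.0 CPM or more with NC siRNA and at 41.7 CPM or less with BNC2 siRNA, whereas the other genes sum to between 14.8 and 18.8 CPM in all libraries.

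The smaller PCDHG genes did not move as one. PCDHGA6 rose from 1.46, 1.68 and 1.87 CPM to 2.73, 2.65 and 2.93 CPM (log2 fold change 0.73, standard error 0.21, edgeR adjusted p = 0.0056). PCDHGA7, its neighbour in the array, was at 2.53, 2.46 and 2.05 CPM with NC siRNA and at 3.55, 2.65 and 4.39 CPM with BNC2 siRNA. This rise was called (0.57, standard error 0.22, edgeR adjusted p = 0.025), but not without BNC2 siRNA replicate 3 (0.39, adjusted p = 0.141), BNC2 siRNA replicate 1 (0.57, adjusted p = 0.0542) or NC siRNA replicate 3 (0.47, adjusted p = 0.0955). PCDHGA9, a few genes further on, fell from 2.08, 2.30 and 2.05 CPM to 1.28, 1.35 and 0.828 CPM (log2 fold change -0.88, standard error 0.25, edgeR adjusted p = 0.0052). PCDHGB7 had the second most counts of the array, with 7.04, 6.39 and 6.20 CPM in NC siRNA and 8.03, 7.84 and 7.19 CPM in BNC2 siRNA libraries. The groups did not overlap, yet the difference was not called (log2 fold change 0.23, standard error 0.13, edgeR adjusted p = 0.114).

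In the PCDHA array, few counts were found, and 2 genes passed the filter. PCDHA12 had 12, 14 and 17 counts with NC siRNA and 29, 18 and 24 with BNC2 siRNA. In CPM the groups overlapped (0.676 to 1.02 against 1.02 to 1.69), and the rise (log2 fold change 0.76, standard error 0.31, edgeR adjusted p = 0.037) was called in 5 of the 11 alternative settings that tested it. Leaving out replicate 1 of NC siRNA gave 0.62 (adjusted p = 0.126) and leaving out replicate 2 gave 0.71 (adjusted p = 0.0922). PCDHAC2, a C-type gene, fell from 1.13, 1.06 and 1.26 CPM to 0.349, 0.790 and 0.255 CPM (log2 fold change -1.27, standard error 0.39, edgeR adjusted p = 0.0079). Without BNC2 siRNA replicate 2 the change was -1.89. PCDHAC2 passed the filter only through the NC siRNA libraries, so its fall was fixed by the filter and its p is no support. The sum of the array was 3.71 ± 0.843 CPM with NC siRNA and 3.53 ± 0.672 CPM with BNC2 siRNA (SD, n = 3), a difference smaller than the spread between libraries.

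PCDHB genes were lower in both members that passed the filter, beside 36.2% of all genes tested that were called lower. PCDHB2 made up 71.1% ± 6.00 of the array's counts with NC siRNA and 76.6% ± 3.85 with BNC2 siRNA (SD, n = 3), and fell from 11.2, 9.13 and 8.43 CPM to 5.70, 7.28 and 7.51 CPM (log2 fold change -0.49, standard error 0.15, edgeR adjusted p = 0.0064). PCDHB9 fell from 1.46, 1.51 and 2.05 CPM to 1.16, 0.790 and 0.764 CPM (log2 fold change -0.87, standard error 0.29, edgeR adjusted p = 0.013). The call on PCDHB9 was lost without NC siRNA replicate 3 (-0.73, adjusted p = 0.0600) or BNC2 siRNA replicate 2 (-0.77, adjusted p = 0.0545). The whole array summed to 13.4 ± 0.841 CPM and 8.90 ± 0.907 CPM, a ratio of 0.66, and without PCDHB2 the ratio was 0.54.

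**Figure D5:**
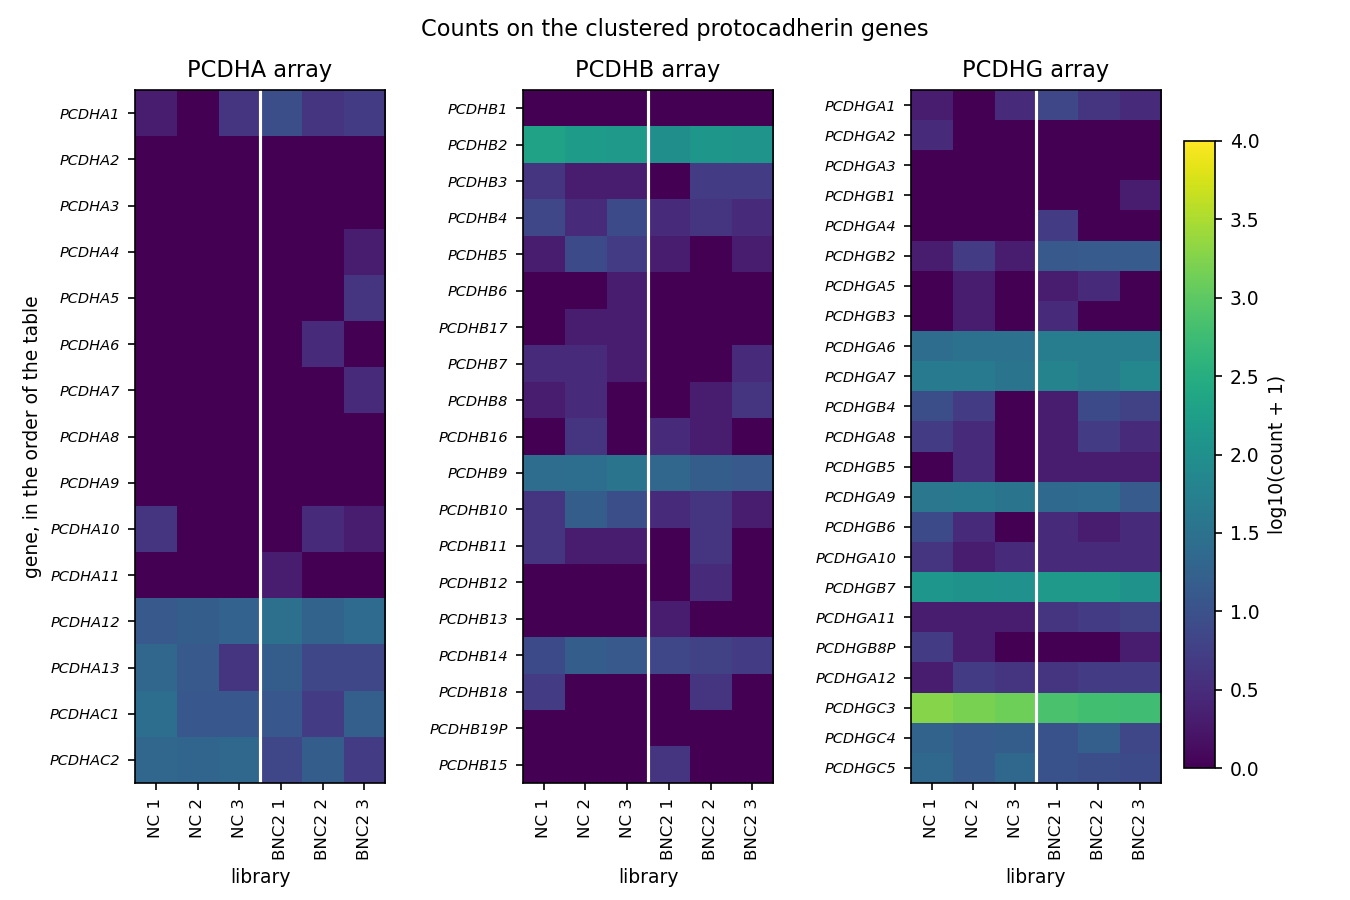
Counts in each library (columns, NC siRNA left and BNC2 siRNA right of the white line) on the 57 clustered protocadherin genes (rows, by array), coloured by log10 of the count plus 1. Most rows are dark, at 0 to 9 counts over the 6 libraries, and PCDHGC3, PCDHB2 and PCDHGB7 are the brightest.

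Below the filter, 7 members, all of them clustered, held at least 30 counts in total. PCDHGB2 had 1, 4 and 1 counts with NC siRNA and 12, 13 and 13 with BNC2 siRNA. PCDHGC5 had 21, 13 and 21 counts with NC siRNA and 9, 8 and 7 with BNC2 siRNA. PCDHB10 had 3, 14 and 8 counts with NC siRNA and 2, 3 and 1 with BNC2 siRNA, a ratio of NC to BNC2 siRNA of 4.04 (95% counting interval 1.62 to 12.04, exact binomial on the summed counts). The groups did not overlap in PCDHGB2 and PCDHGC5, and met at 3 counts in PCDHB10. Among genes past the filter 74.9% did not overlap, and this share was not taken for genes below it. When genes with any count were tested, PCDHGB2 rose (log2 fold change 2.66, edgeR adjusted p = 0.00017), and PCDHGC5 (-1.11, adjusted p = 0.020) and PCDHB10 (-1.92, adjusted p = 0.021) fell. In that fit 9662 of all 18121 genes were called, so a call as such does not set these genes apart. PCDHA13, PCDHAC1, PCDHB14 and PCDHGC4 had 15 to 49 counts per group and were not called in that fit, although PCDHB14 (7, 14 and 12 against 6, 5 and 4 counts) did not overlap between the groups, with a ratio of NC to BNC2 siRNA of 2.13 (95% counting interval 1.13 to 4.23).

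Partners of the cadherins were taken from lists. Of 10 catenins and other proteins of the cadherin tail, 9 were tested, of which 3 were higher and 4 lower, beside 72.9% of all genes called. CTNNB1 (beta-catenin), which holds classical cadherins, was at 230.9 ± 5.48 CPM with NC siRNA and at 236.0 ± 7.45 CPM with BNC2 siRNA and was not called (log2 fold change 0.03, standard error 0.05, edgeR adjusted p = 0.610). JUP (plakoglobin), its close relative, fell from 3.12 ± 0.780 to 1.40 ± 0.162 CPM (log2 fold change -1.15). The alpha-catenins, which connect the complex to actin, differed from each other, with a fall of CTNNA1 from 259.1 ± 8.82 to 188.7 ± 4.51 CPM (-0.46) and a rise of CTNNA2, the neural form, from 1.52 ± 0.240 to 6.61 ± 0.799 CPM (2.12). Of the delta-catenin family, PKP4 rose (0.48) and ARVCF fell (-0.60), CTNND2 was not called (-0.01), and CTNND1 (p120-catenin) was called higher (0.60) at only 2.43 and 3.69 CPM. The table also lists a read-through gene of CTNND1 with TMX2, which has 0 counts, and reads on exons that both cover are assigned to neither, so the level of CTNND1 is uncertain. VCL (vinculin) fell by 0.20 on the log2 scale, and CTNNA3 was below the filter.

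Of the proteases that cut cadherins, ADAM10, which sheds the outer part of CDH2 and of clustered protocadherins, rose from 138.7 ± 6.32 to 196.2 ± 12.1 CPM (SD, n = 3, log2 fold change 0.50, edgeR adjusted p = 1.6e-06). ADAM17, a related sheddase, fell from 97.3 ± 8.20 to 62.0 ± 3.15 CPM (SD, n = 3, log2 fold change -0.65, edgeR adjusted p = 3.8e-07). Among 17 relatives outside the members, such as the FAT, CELSR and calsyntenin genes, 9 were tested, with 4 higher, 1 lower and 4 not called, beside 72.9% of all genes called. CELSR1, a planar polarity cadherin, rose from 21.6 ± 1.76 to 57.8 ± 3.97 CPM (SD, n = 3, log2 fold change 1.42, edgeR adjusted p = 1.8e-10). Among 12 genes known to regulate the arrays, 4 were higher, 4 lower and 4 not called, beside 72.9% of all genes called. SMC1A, a cohesin subunit, rose from 229.2 ± 12.7 to 471.8 ± 20.1 CPM (1.04). Among the other cohesin subunits STAG1 rose (0.49), SMC3 (-0.19) and RAD21 (-0.14) fell, and STAG2 was not called (0.12). Of the genes that load and release cohesin, NIPBL fell (-0.50) and MAU2 was not called (-0.03). WAPAL was called slightly higher (0.17, edgeR adjusted p = 0.0457), with groups that overlapped. DNMT3B, a DNA methyltransferase, fell from 12.2 ± 0.733 to 4.65 ± 0.954 CPM (-1.38). CTCF was at 118.2 ± 3.65 and 122.8 ± 4.22 CPM and was not called (0.06, edgeR adjusted p = 0.396). SMCHD1, a chromatin silencer, rose (0.57), and SETDB1, a histone methyltransferase, was not called (0.15).

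Reads on the opposite strand of the members were few, with 560 beside 72783 counts on the genes' own strand. They made up 0.764% of the reads on both strands, compared with 1.90% over all genes. In 5 members with at least 10 such reads the opposite strand had more reads than the gene, namely CDH4 (49 against 1), PCDHA11 (30 against 1), PCDH12 (20 against 4), CDH23 (11 against 3) and PCDHB19P (11 against 0). Counts that ignore the strand left the same number of members, 23, past the filter. On CDH4 the opposite strand had 26 reads with NC siRNA and 23 with BNC2 siRNA. CDH2 had 50 such reads beside 27747 of its own, and CDH11 120 beside 17832.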

How the data were processed

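BT549 RNA was compared between 3 NC siRNA and 3 BNC2 siRNA libraries, which the authors describe as biological replicates, with groups taken from the sample labels. The authors aligned single-end reads with STAR (2.6.1d in the submitters' processing notes) to hg19 and deposited counts per gene without normalisation, equal in all 23346 genes to STAR's reverse-strand column. Reads assigned to no gene (37.7% to 41.1% of a library) were left out.

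Groups were compared with edgeR 4.0.16 (R 4.3.3, quasi-likelihood test, TMM scaling, Benjamini-Hochberg over the 12186 genes tested). CPM values are TMM-normalised, and the standard error is the log2 fold change divided by the square root of F. With 3 against 3, an exact permutation test of 1 gene cannot go below 0.1.

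The members and lists were chosen with earlier results of these data known. All members past the filter, and others with at least 30 counts, are named. Context genes are named where called with an absolute log2 change of at least 1 or where the list has at most 12 genes, and some results of the protease list are not reported here. Limits against 3 counts, planned for low members, were replaced by a ratio with its counting interval. Positions and exon lengths (1 transcript per gene) come from GENCODE release 44 on GRCh37, which matched 91 of 93 members and is not the annotation used for counting. Alternatives were DESeq2 1.42.0, its size factors, the likelihood ratio test, total counts, other filters, a replicate block, both strands and leaving out each library.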

Additional observations from a re-analysis of the deposited data

How the results depend on the processing

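Of 310 member values under 14 alternatives, 294 kept their direction and side of the threshold, 16 kept their direction but lost the call, and 0 turned. Calls were lost for CDH11, PCDH10, PCDH17, PCDHA12, PCDHB9 and PCDHGA7, 16 members kept theirs wherever they were tested, and PCDHGB7 was called in none. The 16 include CDH3, PCDH20 and PCDHAC2, whose fall was fixed by the filter. Each of them was tested in 11 of the 14 alternatives, never with an NC siRNA library left out, so their kept calls do not show stability. Members called higher numbered 7, with 4 to 7 when 1 library was left out (4 without replicate 3 of NC siRNA), 5 with DESeq2, and members called lower 15, with 11 to 15 when 1 library was left out. Leaving out an NC siRNA library also took 3 or 4 members below the filter, which needs 3 libraries. The median log2 fold change of the members was -0.80. It was -0.88 with scaling by total counts alone, which moved the median of all genes to -0.07, -0.40 without the filter on low counts (78 members), -0.63 with filterByExpr (28 members), and -0.77 to -0.64 when 1 library was left out. With the replicate number as a block, 8400 genes and 6 higher and 15 lower members were called, and PCDHA12 was not (adjusted p = 0.0547). Libraries of the same number did not deviate together (correlations -0.21, -0.08 and -0.13). Deviations from a mean of only 3 libraries cannot exclude that the numbers pair the cultures. PCDHA12 also lost its call with DESeq2 (adjusted p = 0.100), total counts (0.0575) and counts of both strands (0.0582), and PCDHGA7 with DESeq2 (0.0508). Of the 57 clustered genes 48 were below the filter, where these counts are too few for most differences to be detected.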
